A study of Mus musculus with 24 samples.

Results

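Genes for the granule proteins of neutrophils, for the oxidase of their respiratory burst and for further surface and cytosolic proteins of these cells were measured in cultured mouse blood progenitors. The 33 genes were taken by symbol from a count table of 55487 genes, and each of the 33 was present on it. They fall into 6 groups by role, namely 5 primary granule proteins, 9 secondary and tertiary granule proteins, 4 cytosolic or secreted proteins, 6 stefins, 4 subunits of the NADPH oxidase and 5 surface proteins. Ms4a3 is counted with the primary granule genes although it encodes a membrane protein of granulocyte-monocyte progenitors. All 33 passed the filter on low counts that left 18931 genes for testing.

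The measurements were bulk RNA-seq of 24 LSK cell libraries. LSK cells lack lineage markers, carry Sca1 and KIT, and include the stem cells and multipotent progenitors of blood. The ME groups came from Tet-On-ME mice, in which the leukaemia fusion MLL::ENL is switched on by a tetracycline-type inducer, and control groups from mice given no further genotype in the labels. The 6 groups of 4 libraries were ME and control cells at E16 (embryonic day 16, from liver), at P14 (postnatal day 14, from bone marrow) and at 8wk (8 weeks, from bone marrow). MLL::ENL was induced in culture, and cells were cultured for 48 h. The promoter or locus that carries the transgene, the lineage antibodies, the culture cytokines, and whether control cells received the inducer are not given in the sources used here. Age and organ cannot be told apart at E16, and the labels do not name the animal behind each replicate. By Y-linked transcripts each group holds libraries of both sexes, so no group came from a single animal, but how many animals or pools stand behind its 4 libraries is unknown. Libraries with less than 50 CPM of Y-linked transcripts were taken as female. At P14 these held 0.120 CPM or less, and at the other ages up to 18.8 CPM (8wk ME replicate 2). Whether such libraries mix the sexes was not tested.

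A maturing neutrophil makes its granules in sequence. Promyelocytes fill primary (azurophil) granules with myeloperoxidase and serine proteases, myelocytes then fill secondary granules with lactoferrin and antimicrobial peptides, and later cells add gelatinase granules, calprotectin and surface receptors. The NADPH oxidase is a membrane pair, the products of Cybb and Cyba, that is switched on by cytosolic partners including the products of Ncf1 and Ncf4. Monocytes and macrophages also express the oxidase subunits, Lyz2 and Itgam. In a bulk sample, fewer cells of a type and less RNA per cell cannot be told apart.

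Library totals ran from 33891949 to 69295621 counts, and the 33 genes together took between 0.0804% and 1.31% of a library's counts. Over tested genes outside all lists used here, the distance of a library from its own group had a median of 0.287 log2 units, and 4 libraries lay above 0.4. They were E16 ME replicate 4 (0.466), 8wk ME replicate 1 (0.456), 8wk ME replicate 4 (0.496) and 8wk control replicate 1 (0.428). The member genes moved with these libraries. E16 ME replicate 4 was the lowest library of its group for 31 of 33 members, against 34.7% of all tested genes. 8wk ME replicate 4 was the lowest of its group for 30 members, against 35.9% of all tested genes. 8wk control replicate 1 was the highest of its group for 29 members, against 32.3% of all tested genes, and E16 control replicate 1, which did not lie apart, was the highest for 31, against 26.7%. Results that rest on the 4 libraries are given below with and without them.

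The role groups differed in which ages they were found at. Primary granule mRNAs, Cyba, Ncf1, Ncf4 and Csf3r were present in every library, whereas secondary granule, calprotectin and stefin mRNAs were abundant at E16 and low at P14. At P14 no secondary or tertiary granule gene other than Lyz2 averaged above 3.34 CPM (counts scaled for library size with TMM) in ME cells or above 5.92 CPM in control cells, the means of Ltf. At 8wk the secondary granule and calprotectin mRNAs were high in ME replicates 1 to 3 and control replicate 1 and low in the other 4 libraries, and the stefins were low in all 8. Per kilobase of exon, the scale on which genes can be compared, the leading member differed between groups. Mpo was at 691 CPM per kb in E16 ME cells, 256 in P14 ME and 252 in P14 control cells, the highest member mean in each of these. S100a8 led in E16 control cells, at 1358 CPM per kb against 815 for Mpo, and Elane led at 8wk, at 952 CPM per kb in ME and 322 in control cells against 838 and 303 for Mpo. Over all 24 libraries Ly6g was lowest, at 0.198 CPM per kb.

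**Figure D1:**
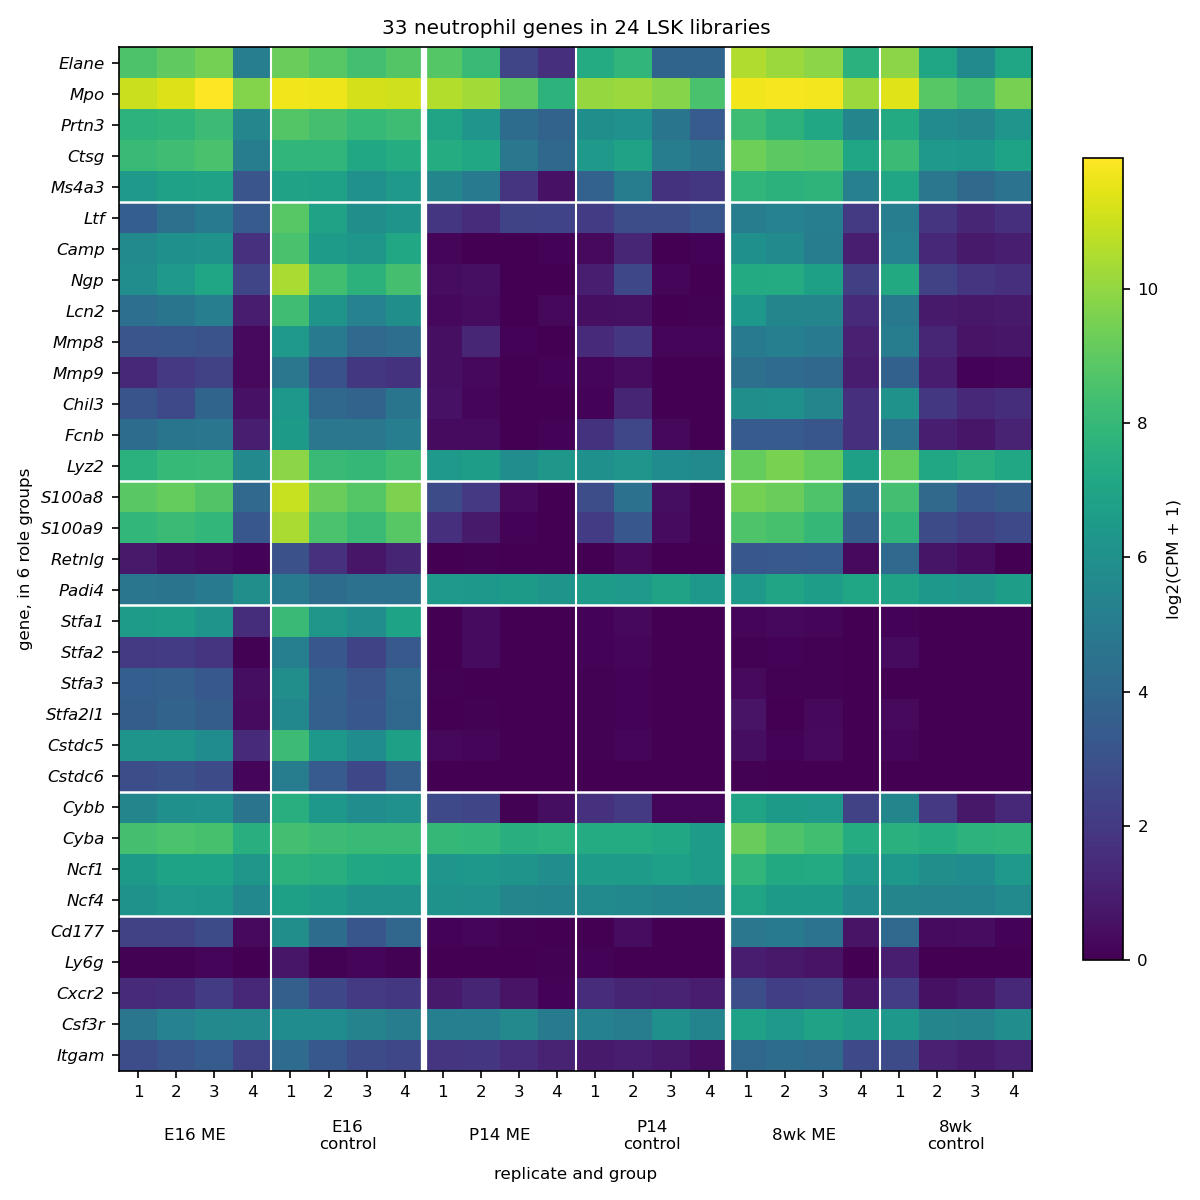
Each cell shows log2(CPM + 1) of a gene (rows, in 6 role groups) in a library (columns, replicates 1 to 4 of each group, ME left of control at each age). The stefin genes stand out in the E16 libraries other than ME replicate 4, and in no marrow library. In E16 ME replicate 4, Stfa1 and Cstdc5 were at 1.99 and 1.72 CPM and the other stefins at 0.358 CPM or below. At 8wk, ME replicates 1 to 3 and control replicate 1 show the secondary granule genes.

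Among primary granule genes, Mpo, the peroxidase that makes hypochlorous acid, had 2044, 2599, 3964 and 861 CPM in E16 ME libraries, against 3357, 3263, 2350.5 and 2188 CPM in E16 control libraries. It had 1533, 1266, 499 and 210.0 CPM in P14 ME and 1071, 1128, 886 and 366 CPM in P14 control libraries. At 8wk it had 3362, 3500.2, 3480.0 and 1142 CPM in ME and 2617, 465, 347 and 715 CPM in control libraries. The groups overlapped at each age, and at 8wk 1 low ME library and 1 high control library made the overlap. Elane encodes neutrophil elastase. It averaged 409.8 ± 281 CPM in E16 ME and 460.5 ± 115 CPM in E16 control cells (SD, n = 4 each), 182 ± 218 CPM in P14 ME and 105 ± 109.7 CPM in P14 control cells, and 937 ± 545 CPM in 8wk ME and 316 ± 426 CPM in 8wk control cells. Prtn3, which encodes proteinase 3, averaged 193 ± 106 CPM in E16 ME and 335 ± 74.0 CPM in E16 control cells, 56.8 ± 52.2 CPM in P14 ME and 39.8 ± 27.3 CPM in P14 control cells, and 176 ± 109.9 CPM in 8wk ME and 83.5 ± 51.6 CPM in 8wk control cells. Both had lower means in ME than in control cells at E16 and higher ones at P14 and 8wk. Ctsg (cathepsin G) averaged 243 ± 146 CPM in E16 ME and 192 ± 47.4 CPM in E16 control cells, 87.6 ± 77.7 CPM in P14 ME and 64.1 ± 44.1 CPM in P14 control cells, and 427 ± 209 CPM in 8wk ME and 144 ± 96.8 CPM in 8wk control cells. Ms4a3, a membrane protein of granulocyte-monocyte progenitors, averaged 82.3 ± 51.4 CPM in E16 ME and 95.3 ± 25.0 CPM in E16 control cells, 19.0 ± 21.0 CPM in P14 ME and 12.4 ± 13.8 CPM in P14 control cells, and 173 ± 92.2 CPM in 8wk ME and 49.1 ± 55.4 CPM in 8wk control cells. None of the 5 passed the test between ME and control at any age (edgeR quasi-likelihood test, Benjamini-Hochberg adjusted over all tested genes, called under 0.05), and 1, Mpo at 8wk, had an unadjusted p under 0.05 (adjusted p = 0.0932).

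Prtn3 and Elane lie next to each other on chromosome 10, at chr10:79874476-79883174 and chr10:79886247-79888215 (GRCm38, plus strand). The P14 libraries split within both groups for these genes, and for members elsewhere in the genome too. S100a8 and S100a9 together had 7.87, 3.78, 0.318 and 0.0230 CPM in P14 ME replicates 1 to 4. In P14 control replicates 1 to 4 they had 9.39, 29.5, 0.632 and 0.0675 CPM. Elane had 445, 277, 4.65 and 2.03 CPM in P14 ME replicates 1 to 4 and 162, 232, 13.6 and 13.7 CPM in P14 control replicates 1 to 4. By Y-linked transcripts, P14 ME replicates 1 and 2 and P14 control replicates 1 to 3 were from females, so the split followed the replicate number in both groups, and sex in the ME group and not in the control group. Between P14 ME and control cells, 0 members were called with sex as a covariate and 0 without it, so these counts cannot show an effect of sex. The part of sex in the split was not tested.

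The largest fitted ME effects at E16 were those of 2 secondary granule genes, Ltf and Ngp. Ltf (lactoferrin, chr9:111019271-111042767, plus strand), the iron-binding protein that defines secondary granules, had 11.1, 20.4, 28.6 and 10.3 CPM in E16 ME libraries, against 467, 118, 58.8 and 72.2 CPM in E16 control libraries. Every ME library was below every control library. Ltf fell by 3.34 on the log2 scale (SE 0.94, edgeR adjusted p = 0.0151). Without E16 ME replicate 4 the log2 change was -3.16 (adjusted p = 0.0539), and without E16 control replicate 1 it was -2.23 (adjusted p = 0.0844). At P14 Ltf had 2.704, 1.90, 4.55 and 4.21 CPM in ME and 3.18, 6.28, 6.05 and 8.19 CPM in control libraries. In 8wk cells its levels were 31.5, 38.9, 33.5 and 3.09 CPM in ME and 33.4, 2.49, 1.45 and 2.15 CPM in control libraries. At 8wk 3 ME libraries stood with 1 control library, and the fourth ME library stood near the other 3 controls.

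The other 8 secondary and tertiary granule genes were Camp (cathelicidin), Ngp (a cystatin-like granule protein), Lcn2 (the siderophore binder lipocalin 2), Mmp8 and Mmp9 (collagenase and gelatinase), Chil3 (a chitinase-like protein), Fcnb (ficolin B) and Lyz2 (lysozyme). Their log2 fold changes at E16 lay between -3.01 and -1.19, and none of the 8 was called. Ngp had 56.7, 87.3, 130.2 and 4.61 CPM in E16 ME libraries, against 1371, 326, 204 and 346 CPM in E16 control libraries. Its groups did not overlap, yet its log2 change of -3.01 had an SE of 1.42 (edgeR adjusted p = 0.142). In all, 6 of the 9 genes of this role had every E16 ME library below every control library (Ltf, Camp, Ngp, Lcn2, Mmp8 and Fcnb), where 12.8% of all tested genes did. Camp averaged 45.7 ± 29.8 CPM in E16 ME and 169.7 ± 133 CPM in E16 control cells, 0.0531 ± 0.0623 CPM in P14 ME and 0.446 ± 0.686 CPM in P14 control cells, and 37.5 ± 27.3 CPM in 8wk ME and 10.5 ± 18.8 CPM in 8wk control cells. Lcn2 averaged 19.4 ± 13.6 CPM in E16 ME and 121 ± 129.8 CPM in E16 control cells, 0.179 ± 0.120 CPM in P14 ME and 0.221 ± 0.229 CPM in P14 control cells, and 42.8 ± 33.3 CPM in 8wk ME and 7.49 ± 13.4 CPM in 8wk control cells. Mmp8 averaged 5.95 ± 3.81 CPM in E16 ME and 37.6 ± 31.96 CPM in E16 control cells, 0.480 ± 0.662 CPM in P14 ME and 1.18 ± 1.26 CPM in P14 control cells, and 23.7 ± 15.2 CPM in 8wk ME and 8.52 ± 15.3 CPM in 8wk control cells. Each of these had its highest mean in E16 control cells. Mmp9 averaged 2.17 ± 1.61 CPM in E16 ME and 9.79 ± 11.6 CPM in E16 control cells, 0.185 ± 0.175 CPM in P14 ME and 0.109 ± 0.155 CPM in P14 control cells, and 13.4 ± 8.66 CPM in 8wk ME and 3.32 ± 5.90 CPM in 8wk control cells. Chil3 averaged 6.69 ± 5.43 CPM in E16 ME and 33.6 ± 32.5 CPM in E16 control cells, 0.156 ± 0.248 CPM in P14 ME and 0.369 ± 0.682 CPM in P14 control cells, and 42.3 ± 28.03 CPM in 8wk ME and 19.0 ± 33.9 CPM in 8wk control cells. Fcnb averaged 16.9 ± 11.1 CPM in E16 ME and 43.8 ± 30.9 CPM in E16 control cells, 0.157 ± 0.134 CPM in P14 ME and 1.86 ± 2.27 CPM in P14 control cells, and 7.56 ± 3.69 CPM in 8wk ME and 6.39 ± 10.8 CPM in 8wk control cells. Mmp9 and Chil3 had their highest means in 8wk ME cells and Fcnb in E16 control cells. Ngp averaged 0.171 ± 0.201 CPM in P14 ME and 1.54 ± 2.34 CPM in P14 control cells and 109 ± 73.9 CPM in 8wk ME and 40.3 ± 74.9 CPM in 8wk control cells. At 8wk the 9 log2 changes lay between 0.23 and 2.50, all positive, and none was called. Lyz2, which had the highest mean CPM of this role over the 24 libraries (Ngp was above it in E16 control cells), had 198, 256, 266 and 48.6 CPM in E16 ME and 924, 264, 246 and 324 CPM in E16 control libraries. It had 86.1, 101, 57.9 and 78.6 CPM in P14 ME and 63.5, 74.5, 54.8 and 49.8 CPM in P14 control libraries. At 8wk Lyz2 had 553, 738, 561 and 110.1 CPM in ME and 552, 138, 181 and 137 CPM in control libraries, so that its groups overlapped at all 3 ages. Chil3 and Lyz2 share 26.9% and 15.4% of their transcripts' 50-base words with other genes (Chil4 and Gm6522 for Chil3, Lyz1 for Lyz2), so their counts are uncertain to that extent.

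S100a8 and S100a9 encode calprotectin, the main cytosolic protein pair of neutrophils. S100a8 had 480.2, 568, 421 and 15.7 CPM in E16 ME and 1960.4, 596, 443 and 772 CPM in E16 control libraries. It had 5.81, 2.95, 0.238 and 0.0230 CPM in P14 ME and 6.19, 20.9, 0.376 and 0.0338 CPM in P14 control libraries. The 8wk values were 701, 603, 399 and 18.6 CPM in ME and 337, 16.6, 8.45 and 10.6 CPM in control libraries. All 4 ME libraries lay above 3 of the control libraries at 8wk, and 3 of them lay above the fourth too. S100a9 averaged 192 ± 124 CPM in E16 ME and 628 ± 518 CPM in E16 control cells, 0.741 ± 0.956 CPM in P14 ME and 3.01 ± 3.97 CPM in P14 control cells, and 253 ± 173 CPM in 8wk ME and 59.9 ± 109.8 CPM in 8wk control cells. Neither gene was called between ME and control at any age. Retnlg, a resistin-like secreted protein, averaged 0.357 ± 0.281 CPM in E16 ME and 2.75 ± 2.74 CPM in E16 control cells, 0.0128 ± 0.0257 CPM in P14 ME and 0.0598 ± 0.120 CPM in P14 control cells, and 6.88 ± 4.44 CPM in 8wk ME and 4.28 ± 7.97 CPM in 8wk control cells.

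Padi4, whose enzyme citrullinates histones when neutrophils release chromatin traps, was higher after birth than at E16. It had 25.2, 23.4, 30.8 and 59.2 CPM in E16 ME and 29.6, 17.5, 21.2 and 21.6 CPM in E16 control libraries. After birth it lay between 72.8 and 133 CPM in the ME libraries and between 74.1 and 118 CPM in the control libraries. In control cells it was higher at P14 than at E16 by 2.08 on the log2 scale (SE 0.24, edgeR adjusted p = 3.15e-06) and higher at 8wk than at E16 by 2.06 (SE 0.24, adjusted p = 2.21e-06). E16 ME replicate 4, the library lowest for 31 members, was the highest of its group for Padi4.

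The stefins, small cytosolic inhibitors of cysteine proteases that mouse neutrophils express in quantity, separated fetal liver from marrow. Stfa1 had 93.7, 101, 71.7 and 1.99 CPM in E16 ME and 270.0, 79.5, 57.8 and 119.5 CPM in E16 control libraries. It had 0.257 CPM in P14 ME replicate 2 and 0 in the other P14 ME libraries, and 0.0859 and 0.209 CPM in P14 control replicates 1 and 2 and 0 in replicates 3 and 4. Its 8wk levels were 0.113, 0.190, 0.158 and 0 CPM in ME libraries, and 0.0698 CPM in control replicate 1 and 0 in the other 3. Summed over the 6 genes, stefin mRNA ran from 4.55 to 208 CPM in E16 ME and from 139 to 738 CPM in E16 control libraries. It did not exceed 1.31 CPM in any marrow library. Of the single genes at E16, Cstdc5 averaged 50.3 ± 33.2 CPM in E16 ME and 136 ± 109 CPM in E16 control cells. Stfa3 averaged 7.88 ± 5.16 CPM in E16 ME and 23.7 ± 23.7 CPM in E16 control cells. Stfa2l1 averaged 8.54 ± 5.63 CPM in E16 ME and 20.8 ± 18.1 CPM in E16 control cells. Stfa1 and Cstdc5 thus made up most of the sum. Stfa2 averaged 2.27 ± 1.53 CPM in E16 ME and 14.0 ± 13.6 CPM in E16 control cells. Cstdc6 averaged 4.80 ± 3.13 CPM in E16 ME and 14.4 ± 11.8 CPM in E16 control cells. No stefin averaged above 0.186 CPM in any marrow group. No stefin was called between ME and control at any age, although Stfa2 had every E16 ME library below every control library (log2 change -2.62, SE 0.97, edgeR adjusted p = 0.0577).

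The ratio of stefin to calprotectin mRNA differed between the ages. For each 100 CPM of S100a8 and S100a9 together, the E16 ME libraries held between 18.7 and 27.4 CPM of stefins and the E16 control libraries between 19.2 and 22.9 CPM. E16 ME replicate 4 is part of that range, at 4.55 CPM of stefins to 24.3 CPM of calprotectin mRNA. The 4 8wk libraries with high calprotectin mRNA, ME replicates 1 to 3 and control replicate 1, held 562 to 1100.3 CPM of it, a level inside the E16 range of 24.3 to 3357 CPM, and 0.0473 to 0.129 CPM of stefins for each 100. The other 8wk libraries held 0 stefin counts beside 12.4 to 29.1 CPM of calprotectin mRNA. At P14, ME replicate 2 held 18.4 per 100, from 27 stefin counts, just under the lowest E16 library, and the other 7 libraries held 3.20 or less. Calprotectin mRNA marks other myeloid cells as well as neutrophils, and the part of cell type in this difference was not tested.

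**Figure D2:**
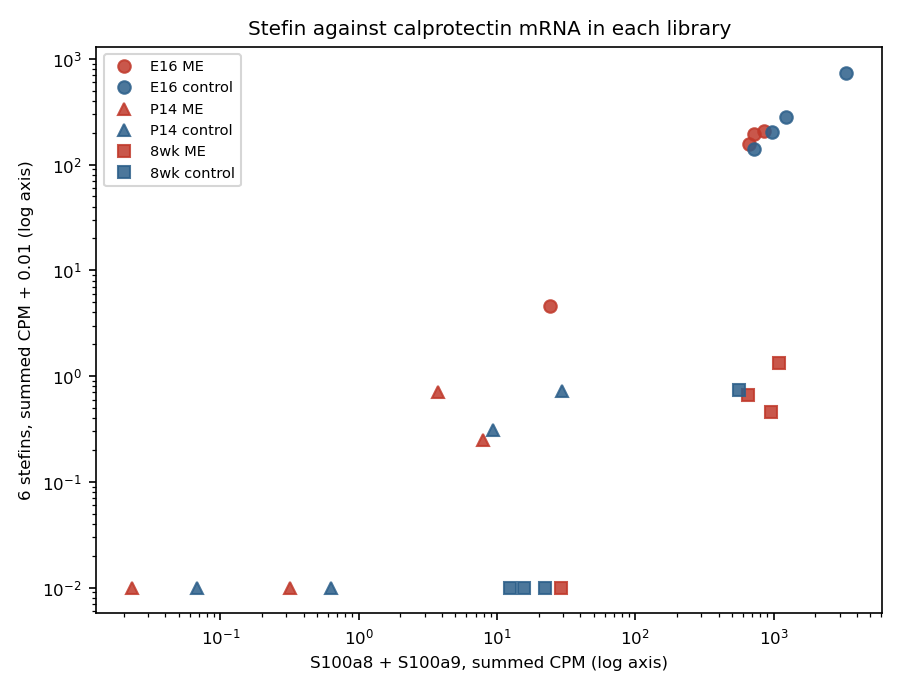
Each point is a library: the x axis is the summed CPM of S100a8 and S100a9 and the y axis the summed CPM of the 6 stefins plus 0.01, both on log axes, by age (shape) and ME or control (colour). The 8 E16 libraries lie along 1 line from 24.3 to 3357 CPM of calprotectin mRNA, and the 8wk libraries with 562 to 1100.3 CPM lie far below it.

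The 6 stefin genes stand together on chromosome 16 between positions 36156811 and 36455392 (GRCm38), and some are near copies. Of the 50-base words in their transcripts, between 0% (Stfa3) and 33.7% (Cstdc6) occur in another gene's transcripts. Stfa1 shares 19.4% of its words with Cstdc5, and Stfa2l1 shares 16.8% with Stfa2. Reads from those stretches could be split between copies or dropped, so single stefin values are less certain than Stfa3 or the sum. The copies are alike around their RefSeq starts too. In 280 aligned positions of the RefSeq windows of Stfa1 and Cstdc5 (250 bases before to 50 after the start), 269 bases were identical.

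The upstream sequences of 5 members are shown to set the roles side by side: Elane for the primary granules, Ltf and Ngp for the secondary granules, and Stfa1 and Cstdc5 for the stefins. They are the 250 bases before the annotated start, from RefSeq (GRCm38.p6), 5′ to 3′ on the gene's strand. GENCODE M21 places the starts of these 5 genes further upstream, so part of each printed stretch lies inside the GENCODE gene. For Stfa1 that gene begins at 36276951, and for Cstdc5, on the minus strand, at 36367748. Capitals mark matches on either strand to TTGCNNAA, a form of the C/EBP motif, or to GAGGAA, the core of the PU.1 motif (TTCCTC on the other strand).
Elane, chr10:79886062-79886311, strand +: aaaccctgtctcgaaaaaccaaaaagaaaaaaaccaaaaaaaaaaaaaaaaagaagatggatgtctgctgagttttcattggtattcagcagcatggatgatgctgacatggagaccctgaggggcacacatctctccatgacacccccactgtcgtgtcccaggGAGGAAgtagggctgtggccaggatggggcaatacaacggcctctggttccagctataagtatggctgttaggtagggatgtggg
Ltf, chr9:111019042-111019291, strand +: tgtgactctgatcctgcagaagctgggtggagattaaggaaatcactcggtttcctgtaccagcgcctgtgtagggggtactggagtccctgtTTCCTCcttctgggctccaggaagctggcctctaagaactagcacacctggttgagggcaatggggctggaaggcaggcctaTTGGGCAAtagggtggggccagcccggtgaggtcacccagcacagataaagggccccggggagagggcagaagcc
Ngp, chr9:110419558-110419807, strand +: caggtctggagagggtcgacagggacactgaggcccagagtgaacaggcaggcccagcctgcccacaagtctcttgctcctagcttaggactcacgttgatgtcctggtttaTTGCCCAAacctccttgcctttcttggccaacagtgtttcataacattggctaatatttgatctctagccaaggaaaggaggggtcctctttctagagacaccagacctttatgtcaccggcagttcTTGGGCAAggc
Stfa1, chr16:36276898-36277147, strand +: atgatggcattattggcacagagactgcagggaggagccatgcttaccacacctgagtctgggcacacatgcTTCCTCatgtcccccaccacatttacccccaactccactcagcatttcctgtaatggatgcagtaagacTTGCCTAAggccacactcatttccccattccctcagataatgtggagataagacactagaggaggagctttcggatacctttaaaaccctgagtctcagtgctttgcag
Cstdc5, chr16:36367571-36367820, strand -: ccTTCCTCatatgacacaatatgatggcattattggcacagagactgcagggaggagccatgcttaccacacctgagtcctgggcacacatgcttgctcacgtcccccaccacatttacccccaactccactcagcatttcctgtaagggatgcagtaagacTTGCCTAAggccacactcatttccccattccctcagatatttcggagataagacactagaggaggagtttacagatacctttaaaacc
The motifs were searched for in 300-base windows of 30 members (all but Mmp9, Cstdc6 and Ncf4) and of 32851 promoters in all, on both strands. The C/EBP letters stood in 11 of the 30 members and in 10.8% of all promoters. By role, they were in 5 of 8 secondary and tertiary granule genes, 1 of 5 primary granule genes and 2 of 5 stefins. They were in 2 of 4 cytosolic or secreted protein genes, 1 of 5 surface protein genes and 0 of 3 oxidase genes. The PU.1 letters stood in 20 of the 30 members and in 28.3% of all promoters. By role, these were 5 of 5 primary granule genes, 5 of 5 stefins and 5 of 5 surface protein genes. The rest were 3 of 8 secondary and tertiary granule genes, 1 of 4 cytosolic or secreted protein genes and 1 of 3 oxidase genes. Letters of a TATA box (TATAAA) were in 8 of the 30 and in 13.6% of all promoters. A match describes these windows only and is not a binding site.

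Of the 7 calls of a member between ME and control cells, 4 were of oxidase subunits. Ncf1 (p47phox, the organiser subunit, chr5:134220053-134229625, minus strand) had 90.8, 121, 119 and 80.5 CPM in E16 ME libraries, against 202, 184, 145 and 135 CPM in E16 control libraries. It had 76.5, 81.0, 71.6 and 58.0 CPM in P14 ME and 94.4, 92.5, 106 and 96.7 CPM in P14 control libraries. At 8wk it had 231, 153, 156 and 88.3 CPM in ME and 82.9, 58.8, 56.1 and 84.6 CPM in control libraries. The groups did not overlap at any age, with ME cells below control cells at E16 and P14 and above them at 8wk. Ncf1 fell by 0.69 on the log2 scale at E16 (SE 0.21, edgeR adjusted p = 0.0223), had a log2 change of -0.44 at P14 (SE 0.21, adjusted p = 0.145) and was higher by 1.15 at 8wk (SE 0.21, adjusted p = 4.83e-04). The E16 call was lost without E16 ME replicate 1 or 4 or E16 control replicate 1 or 2, where the log2 change lay between -0.64 and -0.59 (highest adjusted p = 0.0828).

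Ncf4 (p40phox, which binds membrane phosphoinositides) had 69.3, 84.8, 82.4 and 46.1 CPM in E16 ME and 110.5, 92.7, 70.4 and 68.1 CPM in E16 control libraries. It had 70.4, 64.3, 43.5 and 41.2 CPM in P14 ME and 52.4, 47.4, 41.6 and 39.6 CPM in P14 control libraries. In 8wk cells it had 127, 91.3, 89.1 and 53.7 CPM in ME and 44.4, 39.9, 40.7 and 51.0 CPM in control libraries, with no overlap. Ncf4 rose by 1.04 on the log2 scale at 8wk (SE 0.23, edgeR adjusted p = 0.00220), and its changes at E16 and P14 were -0.27 and 0.28.

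Cyba (p22phox, the small membrane subunit) had 338, 372, 349 and 185 CPM in E16 ME and 331, 294, 278 and 273 CPM in E16 control libraries. It had 251, 243, 178 and 199 CPM in P14 ME, each above the 161, 165, 137 and 95.1 CPM in P14 control libraries. The 8wk libraries held 586, 401, 323 and 168 CPM in ME and 189, 168, 212 and 220.1 CPM in control libraries. ME replicate 4 was as low as the lowest control library at 8wk. Cyba rose by 0.90 on the log2 scale at 8wk (SE 0.27, edgeR adjusted p = 0.0147), and the change was 0.59 (adjusted p = 0.0829) without ME replicate 1. At P14 the change was 0.64 (adjusted p = 0.0881).

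Cybb (gp91phox, the catalytic membrane subunit and the partner of Cyba) spread more widely. It had 43.9, 63.4, 66.1 and 22.9 CPM in E16 ME libraries and 183, 82.8, 57.6 and 64.0 CPM in E16 control libraries. At P14 it was at 5.27 CPM or below in ME and 3.05 CPM or below in control libraries. At 8wk it had 124, 89.5, 85.2 and 3.91 CPM in ME and 44.1, 2.91, 0.698 and 1.59 CPM in control libraries. Its log2 change of 2.61 at 8wk had an SE of 1.26 (edgeR adjusted p = 0.133). Per kilobase of exon, the 4 subunits lay far apart in P14 cells. Cyba averaged 209.7 CPM per kb in P14 ME and 134 CPM per kb in P14 control cells, and Cybb averaged 0.443 CPM per kb in P14 ME and 0.240 CPM per kb in P14 control cells. Ncf1 and Ncf4 lay between them, from 19.6 to 27.2 CPM per kb in both groups.

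Of the surface proteins, Csf3r, the receptor for the granulocyte growth factor G-CSF, had 25.2, 38.2, 48.9 and 49.7 CPM in E16 ME and 55.7, 55.9, 39.6 and 32.2 CPM in E16 control libraries. It had 34.3, 34.9, 48.1 and 30.5 CPM in P14 ME and 36.6, 31.2, 63.5 and 40.8 CPM in P14 control libraries. In 8wk cells its levels were 112, 86.8, 117 and 95.8 CPM in ME libraries, all above the 82.5, 42.0, 40.0 and 56.6 CPM in control libraries. Csf3r rose by 0.90 on the log2 scale at 8wk (SE 0.26, edgeR adjusted p = 0.0127), with 0.78 without control replicate 2 (adjusted p = 0.0501) and 0.80 without control replicate 3 (adjusted p = 0.0593). Unlike most members, it was not low in 8wk ME replicate 4.

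Itgam (CD11b, the alpha chain of an adhesion and complement receptor) had 5.99, 7.90, 10.3 and 4.12 CPM in E16 ME and 17.3, 8.73, 5.69 and 4.79 CPM in E16 control libraries. It had 2.46, 2.72, 1.83 and 1.17 CPM in P14 ME, each above the 0.816, 0.927, 0.708 and 0.304 CPM in P14 control libraries. The 8wk values were 15.2, 17.9, 16.4 and 5.29 CPM in ME and 5.87, 1.15, 0.803 and 1.16 CPM in control libraries. ME replicate 4 lay just under control replicate 1, and no other libraries of the groups overlapped. Itgam rose by 2.59 on the log2 scale at 8wk (SE 0.58, edgeR adjusted p = 0.00240), with a change of 1.57 at P14 (SE 0.59, adjusted p = 0.0615). In GENCODE M21, 66.3% of the 50-base words of its transcripts also belong to an overlapping gene model, Gm49368, so its counts depend on how such reads were assigned. Cd177, an activation marker of neutrophils, Cxcr2, the receptor for neutrophil-attracting chemokines, and Ly6g, the antigen used to sort mature mouse neutrophils, were not called at any age. Cd177 averaged 3.42 ± 2.26 CPM in E16 ME and 24.8 ± 23.1 CPM in E16 control cells, 0.0735 ± 0.0636 CPM in P14 ME and 0.0785 ± 0.157 CPM in P14 control cells, and 19.5 ± 12.9 CPM in 8wk ME and 4.18 ± 7.91 CPM in 8wk control cells. Cxcr2 averaged 2.08 ± 0.745 CPM in E16 ME and 5.56 ± 3.99 CPM in E16 control cells, 0.698 ± 0.550 CPM in P14 ME and 1.33 ± 0.393 CPM in P14 control cells, and 3.67 ± 2.32 CPM in 8wk ME and 1.57 ± 1.40 CPM in 8wk control cells. Both were highest in E16 control cells. Ly6g stayed below 1 CPM in every library, with the highest at 0.990 CPM in 8wk control replicate 1 and 0.925 CPM in 8wk ME replicate 1.

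**Figure D3:**
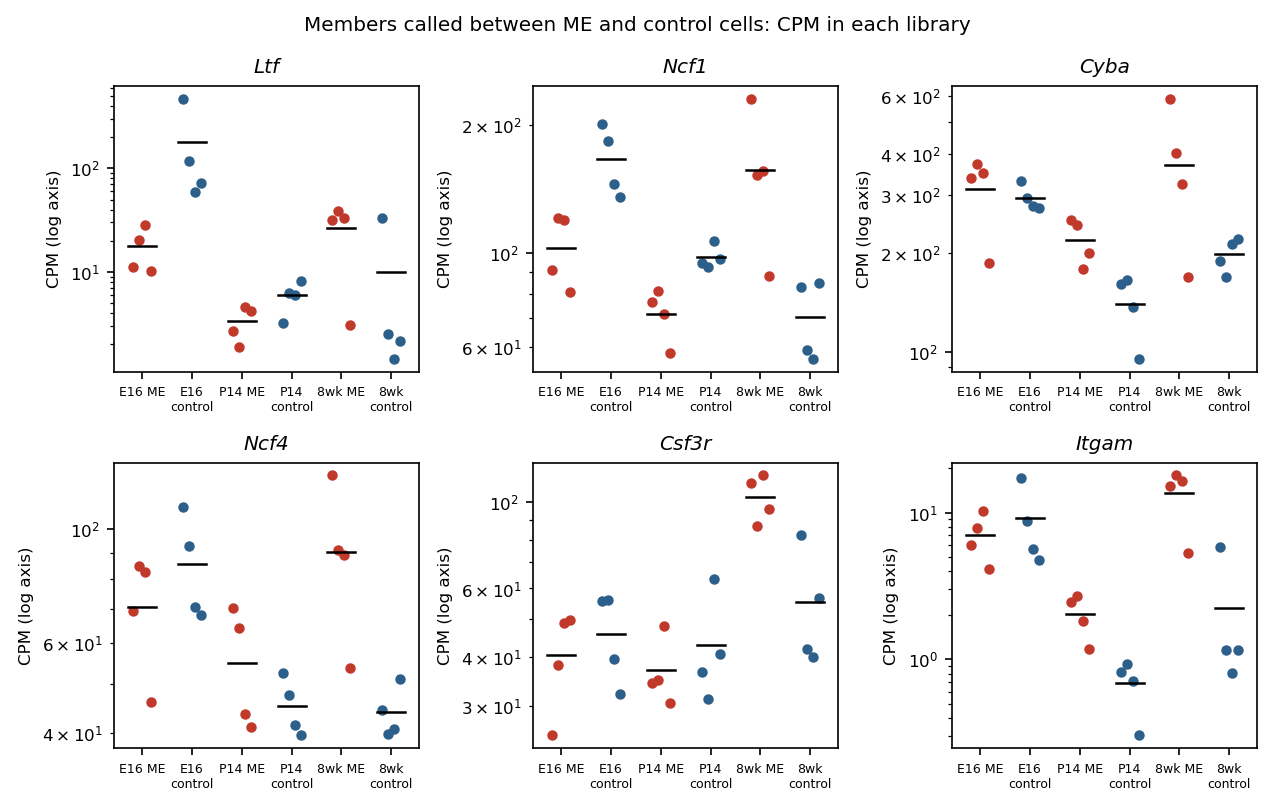
Points are the 4 libraries of each group and bars their means, as CPM on log axes, with ME (red) left of control (blue) at each age. At 8wk the ME libraries of Ncf1, Ncf4 and Csf3r lie above all control libraries, and Ltf at E16 lies below all control libraries.

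Counted over all 33 members, ME cells at E16 had 0 members higher and 2 lower (Ltf and Ncf1), where 21.8% of all tested genes were called, 13.3% higher and 8.47% lower. The median log2 change of the members was -1.37, against 0.02 over all tested genes, and 30 of 33 were negative. All E16 ME libraries lay below all E16 control libraries for 9 members, Cd177 among them, and above them for 0. Of the 18931 tested genes, 12.8% lay below in this way and 2736 above. At P14, 0 members were called by edgeR, where 22.0% of all tested genes were, 12.7% higher and 9.35% lower. At an unadjusted p under 0.05 there were 2 members in each direction, and DESeq2 called 2. All P14 ME libraries lay above all P14 control libraries for 2 members and below them for 1, where 14.1% and 12.4% of all tested genes did. The median was -0.32, against 0.03 over all tested genes. At 8wk, 5 members were higher (Cyba, Ncf1, Ncf4, Csf3r and Itgam) and 0 lower, where 28.5% of all tested genes were called, 14.2% higher and 14.3% lower. The median was 1.46, against -0.02 over all tested genes, and 32 of 33 were positive, with Stfa2 the exception. For 3 members (Ncf1, Ncf4 and Csf3r) each ME library lay above every control library, where 12.0% of all tested genes did. The share of members called in either direction was below that of all tested genes at each age, and at 8wk the share called higher was close to that of all tested genes.

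The members spread widely among libraries. The 4 libraries that lie apart include the lowest ME library at E16 and 8wk and the highest control library at 8wk. The remaining library, 8wk ME replicate 1, was the highest 8wk ME library for 20 of 33 members. Without them (a choice made after the data were seen, which leaves 2 ME libraries and 3 control libraries at 8wk), 4 members were lower at E16 (Ltf, Lcn2, Ncf1 and Cd177), where 19.1% of all tested genes were called. At P14, 2 were higher (Cyba and Itgam) and 2 lower (Fcnb and Ncf1), where 25.4% of all tested genes were called. At 8wk, 23 of 33 were higher and 0 lower, where 30.1% of all tested genes were called. The 10 that were not called were Elane, Prtn3, Ms4a3, Padi4 and the 6 stefins. Leaving out 8wk control replicate 1 alone gave 21 members higher at 8wk, 1 higher and 1 lower at P14 and 5 lower at E16. That fit called 6571 genes at 8wk and 4421 at E16. The E16 count of members was 0 without E16 ME replicate 4, where 3024 genes were called, and 1 without E16 control replicate 1 or 2. The P14 count of members was 1 without 8wk ME replicate 1 or 4. Over all genes, the fits with a library left out called 2875 to 4678 at P14. Without the 4 libraries the log2 change at 8wk was 5.30 for Camp (SE 0.90, edgeR adjusted p = 3.68e-04), 5.76 for Lcn2 (SE 0.89, adjusted p = 1.66e-04) and 2.77 for Mpo (SE 0.62, adjusted p = 0.00319).

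**Figure D4:**
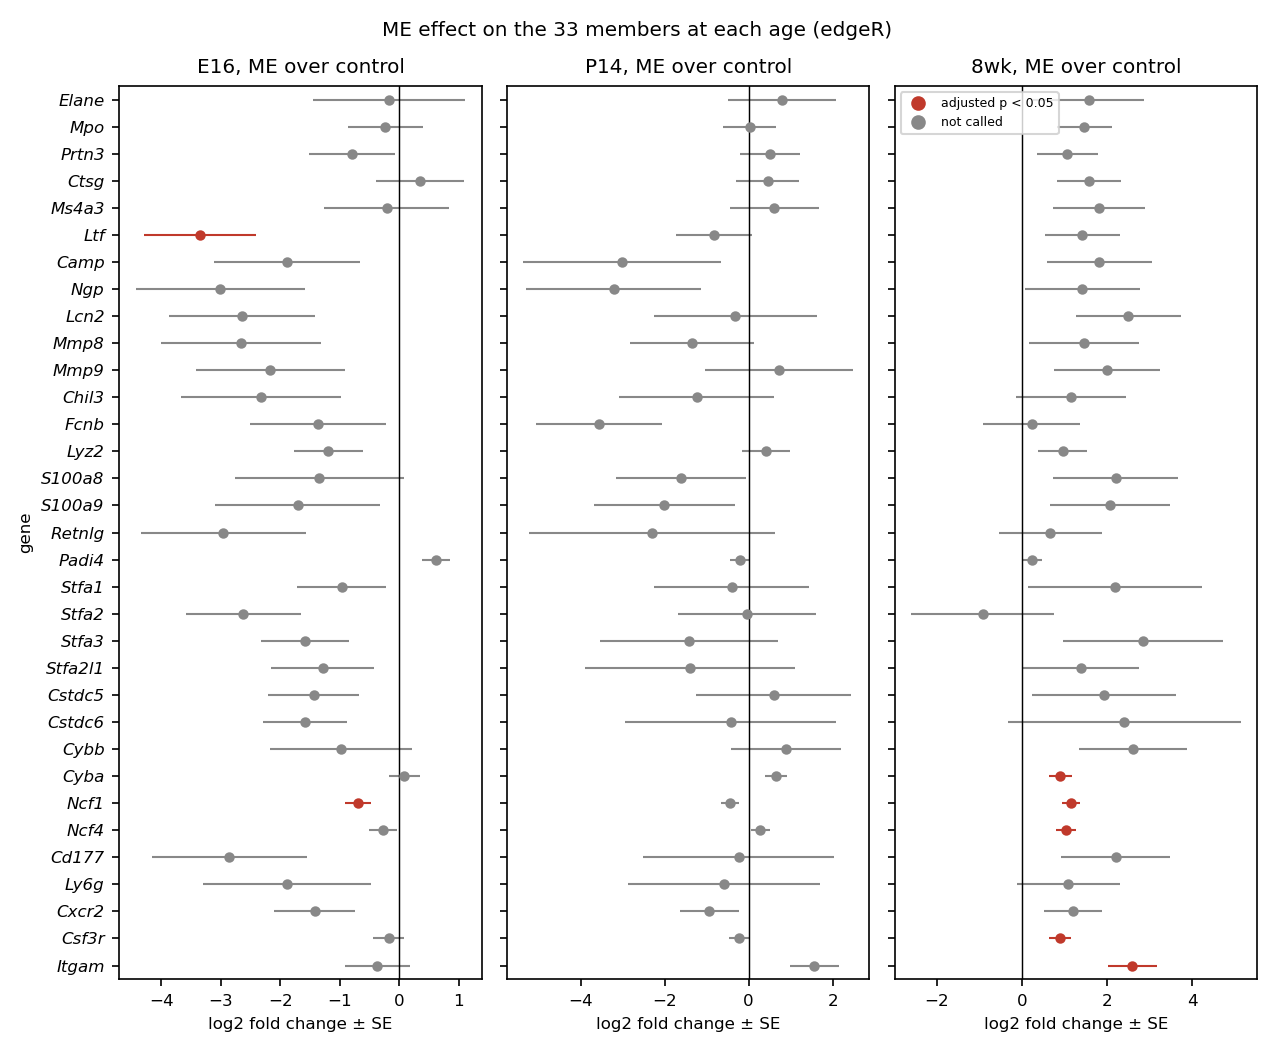
Log2 fold changes of ME over control cells with their SE, for the 33 members (rows) at E16, P14 and 8wk, from the fit to all 24 libraries; red marks an adjusted p under 0.05. The red points are Ltf and Ncf1 at E16 and Cyba, Ncf1, Ncf4, Csf3r and Itgam at 8wk, and the secondary granule genes have long error bars on both sides.

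Within groups, the lowest and highest libraries for markers of monocytes and macrophages were in part those of the members. The summed level of the 15 markers ran from 80.4 to 377 CPM in E16 ME and from 208 to 297 CPM in E16 control libraries, from 21.6 to 57.8 CPM in P14 ME and from 18.5 to 34.4 CPM in P14 control libraries, and from 54.9 to 366 CPM in 8wk ME and from 19.3 to 134 CPM in 8wk control libraries. The lowest of the E16 ME libraries was replicate 4, the lowest of the 8wk ME libraries was replicate 4, and the highest of the 8wk control libraries was replicate 1. The other E16 ME libraries, replicates 1 to 3, had 335, 377 and 332 CPM, each above every E16 control library. The median log2 change of the 15 markers at E16 was 0.29, with 11 positive, against -1.37 over the members. Of the 15, 1 was higher in ME cells at E16, 3 at P14 and 9 at 8wk, and 0 were lower, where 13.3%, 12.7% and 14.2% of all tested genes were higher at these ages. C1qa and C1qb were at 0 counts in P14 control cells. The summed level of 8 LSK markers ran from 3002 to 3795 CPM in 8wk ME and from 2044 to 2475 CPM in 8wk control libraries. Kit alone averaged 1463 CPM in 8wk ME and 487 CPM in 8wk control cells. Of the 8 markers, 3 were higher and 1 lower in 8wk ME cells, where 14.2% and 14.3% of all tested genes were. Of the other marker lists, megakaryocyte markers summed to 43.9 to 72.8 CPM in E16 ME and 188 to 493 CPM in E16 control libraries, and B cell markers to 38.4 to 326 CPM in P14 ME and 39.9 to 44.1 CPM in P14 control libraries. Mast cell, basophil and eosinophil markers summed to 50.6 to 527 CPM in E16 ME and 262 to 393 CPM in E16 control libraries, with E16 ME replicate 4 the lowest. At 8wk they summed to 93.0 to 255 CPM in ME and 86.2 to 288 CPM in control libraries, with ME replicate 4 the highest ME library. E16 ME replicate 4 was also the lowest E16 ME library for erythroid (256 CPM), megakaryocyte (43.9 CPM) and B cell (71.6 CPM) markers. It was the highest for LSK markers (3306 CPM) and T and NK cell markers (94.7 CPM). Of 8 erythroid markers, 1 was lower in ME cells at 8wk and 0 were called at E16 and P14, and of 5 tested T and NK cell markers, 1, 2 and 1 were higher at E16, P14 and 8wk. The part of these cell types in the differences between ME and control cells was not tested.

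Whether the ME effect itself differed between ages was tested as a difference of effects. Between 8wk and E16, the ME effect on Ncf1 was larger by 1.84 (SE 0.30, edgeR adjusted p = 0.00490), the only member called, where 0.850% of all tested genes were called and 0.460% had a larger effect at 8wk. Ncf4 (1.31, adjusted p = 0.0519), Itgam (2.96, adjusted p = 0.0707) and Ltf (4.77, adjusted p = 0.0752) did not pass. Between 8wk and P14, Ncf1 again was the only member called (1.59, SE 0.30, adjusted p = 0.0326), where 0.301% of all tested genes were called and 0.195% had a larger effect at 8wk. That call was lost without any 1 of 9 libraries, namely P14 ME replicates 2, 3 and 4, P14 control replicates 3 and 4, 8wk ME replicates 1, 2 and 3 and 8wk control replicate 2, where the difference lay between 1.34 and 1.65 (highest adjusted p = 0.102). Between P14 and E16, 0 members were called by edgeR or DESeq2, where 0.0211% of all tested genes were called by edgeR, and 2 members had an unadjusted p under 0.05. These comparisons share groups, so their values are not independent of each other. Without the 4 libraries that lie apart, 17 members had a larger ME effect at 8wk than at E16, and 10 a larger one at 8wk than at P14, where 4.74% and 3.40% of all tested genes were called. Without 8wk control replicate 1 alone, these counts were 18 and 4, in a fit that called 896 and 369 genes. The count of members between 8wk and E16 was 4 without 8wk ME replicate 4 and 2 without E16 control replicate 4. Over all genes, the fits with a library left out called 48 to 896 in that difference.

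Control cells alone showed the age pattern of the members without the fusion. Between P14 and E16 control cells, 26 of 33 members were lower and 1, Padi4, was higher, where 15.1% of all tested genes were called, 7.51% lower and 7.61% higher. All 9 secondary granule genes, all 6 stefins, all 4 oxidase subunits, S100a8, S100a9, Retnlg, Prtn3, Cd177, Cxcr2 and Itgam were among the lower ones. For 30 members every P14 control library was below every E16 control library, where 12.6% of all tested genes were. Cyba fell by 1.08, Ncf1 fell by 0.77 and Ncf4 fell by 0.92 on the log2 scale (edgeR adjusted p = 0.00807, 0.0157 and 0.00854), while Camp fell by 8.52, Lcn2 fell by 9.12 and S100a9 fell by 7.70 (adjusted p = 0.00175, 0.00112 and 0.00681). Elane, Mpo, Ctsg, Ms4a3, Ly6g and Csf3r were not called. Of the 26, 21 stayed called whichever library was left out, and Mmp8, Fcnb, Retnlg, Ncf1 and Cxcr2 did not. Of the 26, 14 were called under each of the 10 other fits that kept all libraries or left out the 4 that lie apart. The calls of Camp (adjusted p = 0.0624), Lcn2 (adjusted p = 0.0952), Mmp9, Chil3, Retnlg, Cd177, Cxcr2, Stfa1, Stfa2l1 and Cstdc5 were lost with limma-voom, and those of Mmp8 and Fcnb with no filter on low counts.

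Between 8wk and P14 control cells, 6 members were higher (Lcn2, Mmp9, Chil3, Lyz2, Retnlg and Cd177) and 0 lower, where 12.6% of all tested genes were called and 7.01% were higher. Single libraries decided these calls. Without 8wk control replicate 1, P14 control replicate 1, 3 or 4, in turn, 0 members were called. Lcn2, for example, had 27.6, 0.813, 0.733 and 0.837 CPM in 8wk control and 0.387, 0.449, 0 and 0.0506 CPM in P14 control libraries.

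Between 8wk and E16 control cells, a comparison added after the data were seen, 12 members were lower and 1 (Padi4) higher, where 23.3% of all tested genes were called, 10.8% lower and 12.5% higher. The 12 were all 6 stefins, Ltf, Camp, Lcn2, Ncf1, Ncf4 and Itgam, and 28 were lower without the 4 libraries that lie apart, where 27.9% of all tested genes were called. Without 8wk control replicate 1 alone 25 were lower, in a fit that called 4916 genes. Stfa1 fell by 12.34 on the log2 scale (SE 1.39, edgeR adjusted p = 2.20e-06) and Cstdc5 fell by 11.62 (SE 1.32, adjusted p = 2.40e-06), and with limma-voom neither was called (adjusted p = 0.0747 and 0.0620). Of the 12, 6 were called under each of the 10 other fits, and Ltf, Camp, Lcn2, Itgam, Stfa1 and Cstdc5 were not. Cstdc6 held 0 counts over the 4 8wk control libraries and 2768 over the 4 E16 control libraries, at least 1146-fold lower in 8wk control cells with the group's floor set at 3 counts. Stfa3 held 2 counts in 8wk control and 4705 in E16 control cells, a ratio of 2922 with a 95% counting interval of 808 to 24133. In P14 control cells Cstdc6 held 2 counts, 1923-fold lower than in E16 control cells (interval 532 to 15886). Even counts made up a median of 63.6% of counts from 1 to 20 in a library, the pattern seen where each mate of a read pair adds 1 count, so intervals, which cover counting error only, are too narrow and bounds set against the floor too large.

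Related genes were counted in 4 further lists. Of 8 transcription factors of granulocytes, 3 were higher in ME cells at E16, 5 at P14 and 5 at 8wk, and 0 lower. For these lists the shares of all tested genes are 13.3% higher and 8.47% lower at E16, 12.7% and 9.35% at P14, and 14.2% and 14.3% at 8wk, so that 1 call among 10 to 14 genes is near the background. Gfi1, a repressor needed for neutrophil formation, averaged 12.0 CPM in 8wk ME and 0.634 CPM in 8wk control cells (log2 change 4.20, SE 0.68, edgeR adjusted p = 1.59e-04), with changes of 4.69 at P14 and 4.02 at E16. Cebpa, the factor that commits progenitors to granulocytes, was higher by 1.65, 2.44 and 2.88 at E16, P14 and 8wk. Cebpe, a factor of late granulocyte maturation, was not called, with 9.02 CPM in E16 ME and 12.4 CPM in E16 control cells. Its means were higher in ME cells after birth, at 1.67 CPM in P14 ME and 0.525 CPM in P14 control cells. At 8wk they were 6.22 CPM in ME and 1.53 CPM in control cells. Of 13 tested genes for other granule proteins, 2 were lower at E16 (Anxa1 and Cst7), 1 was higher at P14 (Srgn) and 1 was higher at 8wk (Adam8). Of 14 tested genes for other neutrophil surface receptors, 4 were lower and 0 higher at E16, 3 lower and 1 higher at P14, and 0 lower and 6 higher at 8wk. Itgb2, the beta chain that pairs with the product of Itgam, averaged 145 CPM in 8wk ME and 39.0 CPM in 8wk control cells (log2 change 1.89, SE 0.34, adjusted p = 4.74e-04). Of 10 other oxidase and respiratory burst genes, 1 was higher and 3 lower at E16, 1 higher and 2 lower at P14, and 4 higher and 0 lower at 8wk. Rac1, a small GTPase that takes part in oxidase activation, was higher at all 3 ages, by 3.64, 3.96 and 3.91 on the log2 scale.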

How the data were processed

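Per the labels' protocols, the RNA of 24 libraries was extracted with Qiagen RNeasy Plus and amplified with Clontech reagents of the SMART type. The deposited table holds raw read counts per gene that the authors made with STAR 2.7.9a and featureCounts 2.0.3 on GRCm38, per the submitters' processing notes. Which annotation was counted, whether strand was used and how reads matching several genes were treated are not given in the sources used here. The table has 55774 lines, and 168 gene IDs that stood on several lines with identical counts were kept once, which left 55487.

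Counts were scaled with TMM and tested in edgeR 4.0.16 (R 4.3.3) with a robust quasi-likelihood fit to all 24 libraries, after a filter at a minimum count of 10 (filterByExpr) that left 18931 genes. Adjusted p-values are Benjamini-Hochberg over these genes within each of 9 comparisons and are called under 0.05. A library's distance is the root mean square difference of its log2(CPM + 1) values from the mean of the other libraries of its group, over tested genes outside all lists. Alternatives used DESeq2 1.42.0 and limma 3.58.1 (voom), other scalings and filters, a replicate block, sex as a covariate and each library left out. The fit was tested on simulated data with 200 changed genes. Gene positions are from GENCODE M21 and upstream sequences from RefSeq, both on GRCm38.

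The members and lists were chosen with earlier results of these data known. Values in each library are given for members called between ME and control cells and for the most abundant member of each role, group means for others that reach 1 CPM in a group, and up to 4 called genes of each related list. Cybb, Elane, Ngp, Lcn2 and Padi4 are given by library outside this rule, chosen after their values were seen.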

Additional observations from a re-analysis of the deposited data

Results flagged for a closer look

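A member was listed here when the highest or lowest of the 4 libraries of a group stood apart from the other 3 by Dixon's test at the 95% level. Of 149 sets of 4 libraries, 33 did, where 1 in 20, or 7.45, would among independent sets of normally distributed values. The test used CPM without a log scale, and the members share the same libraries. The sets are thus not independent, and 33 cannot be weighed against 7.45. All 33 lay in 4 libraries.

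8wk control replicate 1 was the high library for 18 members. Among primary granule genes it held 952 CPM of Elane, 2617 CPM of Mpo and 132 CPM of Ms4a3. Among secondary and tertiary granule genes it held 33.4 CPM of Ltf, 38.7 CPM of Camp, 153 CPM of Ngp, 27.6 CPM of Lcn2, 31.4 CPM of Mmp8, 12.2 CPM of Mmp9, 69.8 CPM of Chil3, 22.6 CPM of Fcnb and 552 CPM of Lyz2. It also held 337 CPM of S100a8, 225 CPM of S100a9, 16.2 CPM of Retnlg, 44.1 CPM of Cybb, 16.0 CPM of Cd177 and 5.87 CPM of Itgam.

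E16 control replicate 1 was the high library for 9 members. It held 467 CPM of Ltf, 1371 CPM of Ngp, 315 CPM of Lcn2, 81.7 CPM of Chil3, 89.7 CPM of Fcnb, 924 CPM of Lyz2, 1397 CPM of S100a9, 34.2 CPM of Stfa2 and 58.9 CPM of Stfa3.

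8wk ME replicate 4 was the low library for Mpo (1142 CPM), Ms4a3 (36.4 CPM) and Retnlg (0.251 CPM). E16 ME replicate 4 was the low library for Mmp8 (0.246 CPM), S100a9 (8.56 CPM) and Cstdc6 (0.157 CPM).

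The ME effect on Ncf1 differed between ages by the test of the difference itself, by 1.59 on the log2 scale between 8wk and P14 and by 1.84 between 8wk and E16.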

How the results depend on the processing

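No called member changed direction under any alternative or left-out library, and of all 33 members only Stfa2 at P14, which was not called, changed sign with another scaling (library size alone). The Ncf1 calls at 8wk and between 8wk and E16 held throughout. The number of members called did change with the processing, and the causes were not tested. Members called between ME and control cells at 8wk numbered 9 with a replicate block and 23 without the 4 libraries that lie apart. At E16 they numbered 4 with a filter of 1 CPM in 4 libraries, 5 with voom, 5 with a fit to the groups compared, 4 with the block and 4 without the 4 libraries. At P14 they numbered 2 with DESeq2, 1 with the CPM filter, 1 with library-size scaling, 3 with a fit to the groups compared, 2 with the block and 4 without the 4 libraries. Members with a different ME effect at 8wk and E16 numbered 4 with DESeq2, 2 with RLE scaling, 3 with the CPM filter, 5 with the block and 17 without the 4 libraries, and at 8wk and P14 they numbered 0 with a fit to the groups compared and 10 without the 4 libraries. Between 8wk and E16 control cells 23 members were called with the block and 29 without the 4 libraries. Between 8wk and P14 control cells 11 were called with DESeq2, 0 with voom, with no filter or with a fit to the groups compared, 1 with sex as a covariate and 3 without the 4 libraries. The Ncf1 difference between 8wk and P14 (1.59) had an adjusted p of 0.0892, and the Cyba change at 8wk (0.94) one of 0.0638, when the groups compared were fitted alone.

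With each library left out in turn, the members called between ME and control cells ranged from 0 to 5 at E16, 0 to 2 at P14 and 4 to 21 at 8wk. The differences of effects gave 0 between P14 and E16 throughout, 0 to 4 between 8wk and P14 and 1 to 18 between 8wk and E16. Control cells gave 22 to 28 between P14 and E16, 0 to 9 between 8wk and P14 and 10 to 26 between 8wk and E16. Over all genes the same fits called 3024 to 4421 at E16, 2875 to 4678 at P14 and 3433 to 6571 at 8wk. They called 1 to 5, 4 to 369 and 48 to 896 in the 3 differences, and 2091 to 3108, 929 to 3115 and 3333 to 4916 in the 3 control comparisons.

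Over all genes, the 10 other fits called 3034 to 4728 at E16, 3237 to 5062 at P14 and 2907 to 6012 at 8wk between ME and control cells. The 2907 at 8wk came when its groups were fitted alone. The difference between 8wk and E16 called 577 genes with DESeq2, 250 with the CPM filter, 107 with no filter, 55 with the groups alone, 357 with the block, 85 with sex and 946 without the 4 libraries. That between 8wk and P14 called 279 with DESeq2, 0 with the groups alone and 678 without the 4 libraries, and that between P14 and E16 called 29 with DESeq2 and 14 without the 4 libraries. Control cells at 8wk and P14 gave 1483 with no filter, 1092 with the groups alone and 3748 without the 4 libraries. Library-size scaling moved the share of calls that were higher to 74.6% at E16, against 61.1% with TMM, to 70.5% at P14, against 57.5%, and to 43.2% between 8wk and P14 control cells, against 55.7%.

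Same-numbered libraries were not taken as pairs, since not every correlation of their deviations passed 0.1. The correlations were -0.10 to -0.00 at E16, 0.09 to 0.32 at P14, where 3 of 4 were above 0.1, and -0.22 to 0.07 at 8wk. The block values above give a replicate number the same effect at all ages. Pairs within P14 alone were not fitted, so the P14 counts rest on unpaired libraries or on that shared block. Depth limits the stefins after birth, which rest on 0 to 58 counts a library.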
